A study of Mus musculus with 6 samples.

Results

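The genes that drive and mark cell division were followed in endothelial cells of the kidney glomerulus, the capillary tuft that filters blood, taken from mice lacking endothelial nitric oxide synthase with or without streptozotocin (STZ). A list of 39 genes was used, split by role into 7 regulators of the G1 phase, 10 genes of DNA replication in S phase and 22 genes of mitosis and the entry into it. Of these, 30 had a row among the 12911 genes analysed, 5 of G1, 9 of S phase and 16 of mitosis, and all 30 were tested. Ccne1, Ccne2, Rrm2, Ccnb1, Ccnb2, Birc5, Aurka, Aurkb and Ube2c, the other 9, had no row and were not analysed here. The list therefore lacks cyclin E, cyclin B, the aurora kinases and the small subunit of ribonucleotide reductase, and what follows says nothing about them.

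All mice were eNOS-null, the controls included, and no group with intact eNOS was analysed here. The control group was untreated and the STZ group received streptozotocin, a toxin of insulin-producing cells that is used to make mice diabetic. Age, sex, strain, dose and time after STZ are not given in the labels. Glomeruli were captured with magnetic beads, dissociated, and the EYFP-positive cells sorted as endothelial, and the labels do not name the promoter that drives EYFP. Each group had 3 libraries, and each library held RNA of 4 pooled mice, so that errors and p-values describe the spread between pools. Values are CPM (counts scaled to a common library size, mean ± SD, n = 3 pools per group unless said otherwise) or log2 fold changes of STZ over control with their standard error (SE). A gene was called higher or lower when its adjusted p in the edgeR quasi-likelihood test was under 0.05, and p-values were adjusted over all 12786 tested genes.

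Resting endothelial cells sit outside the cell cycle. Growth signals raise D-type cyclins, which with the kinases Cdk4 and Cdk6 phosphorylate the retinoblastoma protein and free E2F factors, and E2F factors switch on the genes of DNA replication. The minichromosome maintenance (MCM) helicase then unwinds DNA at origins, and later a separate wave of transcription supplies the kinases, motors and kinetochore proteins of mitosis. Glomerular endothelium of the adult is a quiescent tissue in which few cells divide at a time, and inhibitors such as p21, encoded by Cdkn1a, hold cells in G1. In RNA of pooled cells, a larger number of dividing cells and more RNA in each dividing cell cannot be told apart.

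Deposited counts summed to between 4387339 and 8751732.5 in the control pools and between 10734376 and 12662371.5 in the STZ pools, so every STZ pool was the deeper. Nos3, the targeted gene, was still read at 757 to 917 CPM in control and 613 to 749 CPM in STZ, which does not show whether these transcripts carry the null allele. Xist was at 690 to 746 CPM in control pools and at 0.387 to 0.865 in STZ pools, and Ddx3y of the Y chromosome at 2.65 to 3.37 against 131 to 139 CPM, so treatment cannot be told apart from the sex of the pooled mice, nor from depth, in any comparison below. The endothelial markers Plat and Ehd3 were at means of 2630 and 3001 CPM in control and 8303 and 5230 in STZ pools, and the summed level of 12 such markers was 16150 to 18250 CPM in control and 27180 to 29210 in STZ. That sum is weighted to Plat and Ehd3: 6 of the 12 were called higher, the median log2 fold change was 0.36, and Tek (0.02 ± 0.09) and Tie1 (-0.01 ± 0.10) overlapped. Podocyte markers, led by Podxl (11 of 11 with a row, none at 0), summed to 4504 to 7324 CPM in control and 4834 to 6000.0 in STZ, with none called and a median of -0.61. Podxl, at means of 3581 and 3708 CPM, weighs most in that sum. It alone had a positive log2 fold change (0.05 ± 0.13), and the other 10 were negative. Mesangial and mural markers, led by Itga8 and Pdgfrb (11 of 11, none at 0), summed to 1229 to 1334 against 478 to 870 CPM, with 4 called lower. Leukocyte markers (8 of 12) summed to 93.9 to 128 against 101 to 115 CPM, where Ptprc (44.9 to 35.8 CPM on average) and Cd79a (14.8 to 4.45, called lower) had negative fold changes while 6 of 8 had positive fold changes (median 0.38) and Fcer1g was called higher (0.98 ± 0.24, adjusted p = 0.0197). Tubule markers (7 of 12) summed to 158 to 489 against 44.4 to 239 CPM, with 1 called lower, and erythroid markers (6 of 8) to 23.5 to 61.8 against 129 to 212 CPM, with 4 called higher. The part of these other cells in the values of the cell cycle genes was not tested. The counts of markers called stand beside 5.47% of all tested genes called higher and 4.32% called lower.

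Of the 30 genes, 4 were called higher in STZ pools and 1 lower, where 5.47% of all tested genes were called higher and 4.32% lower (9.78% either way). The higher ones were 2 D-type cyclins, Ccnd3 and Ccnd1, the helicase subunit gene Mcm3 and the topoisomerase gene Top2a, and the lower one was the third D-type cyclin, Ccnd2. A positive log2 fold change was found in 21 of the 30, against 48.2% of all tested genes, and the median was 0.21, against -0.01 over all tested genes. Without STZ pool 3 the number called higher was 2. Ccnd2 was not called when any 1 of the 6 libraries was left out, by DESeq2, with a replicate block or at equal depth.

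**Figure D1:**
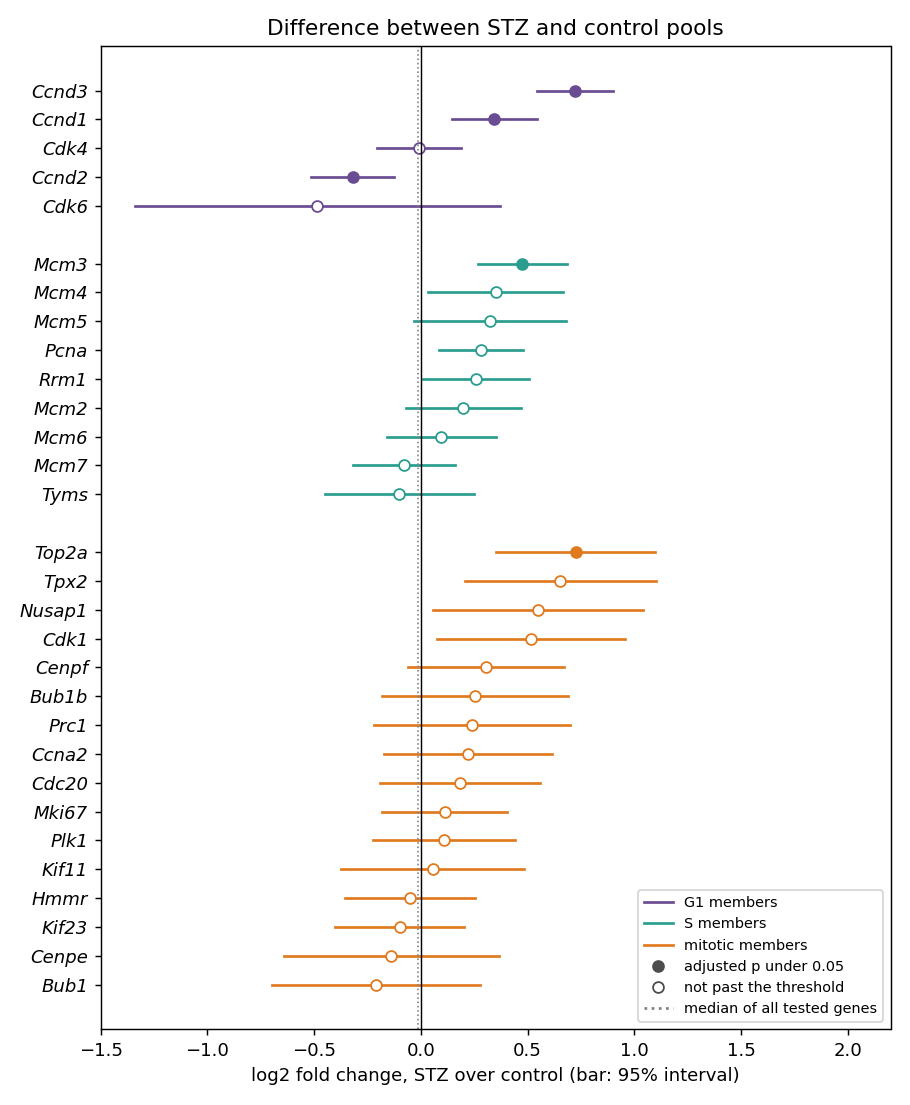
log2 fold change of STZ over control for the 30 cell cycle genes, grouped by phase and sorted by size. Bars are 95% intervals and filled points passed an adjusted p of 0.05. Only Ccnd2 among the filled points lies below 0, and the intervals of the mitotic genes are the widest on average.

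Of the 5 G1 genes 3 were called, all of them D-type cyclins, the regulatory partners of Cdk4 and Cdk6, where 9.49% of the tested genes in their range of mean CPM were called. Ccnd3, encoding cyclin D3 (NM_001081636; mm10 chromosome 17, 47505051 to 47599688, plus strand), stood at 103, 100.4 and 96.1 CPM in control pools 1, 2 and 3 and at 160.4, 168 and 167 CPM in STZ pools 1, 2 and 3. The groups were far apart, with a log2 fold change of 0.72 ± 0.08 (adjusted p = 0.000123), and the call held under all 17 alternative settings. Ccnd1, encoding cyclin D1 (NM_007631; mm10 chromosome 7, 144929931 to 144939925, minus strand), was the most abundant member at 314, 314 and 357 CPM in control and 437, 408 and 405 CPM in STZ pools. Every STZ pool was above every control pool, and the log2 fold change was 0.35 ± 0.09 (adjusted p = 0.0330). That call was lost in 6 of the 17 alternatives, namely without control pools 1 or 2 or any 1 STZ pool, and with a replicate block, where adjusted p ran up to 0.162. Ccnd2, encoding cyclin D2 (NM_009829; mm10 chromosome 6, 127125709 to 127151048, minus strand), went the other way, from 84.6, 86.2 and 95.2 CPM in control to 70.0, 74.3 and 68.6 CPM in STZ pools. All STZ pools were below all control pools, with a log2 fold change of -0.32 ± 0.09 (adjusted p = 0.0402), and over the alternatives adjusted p ran from 0.0304 to 0.156.

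**Figure D2:**
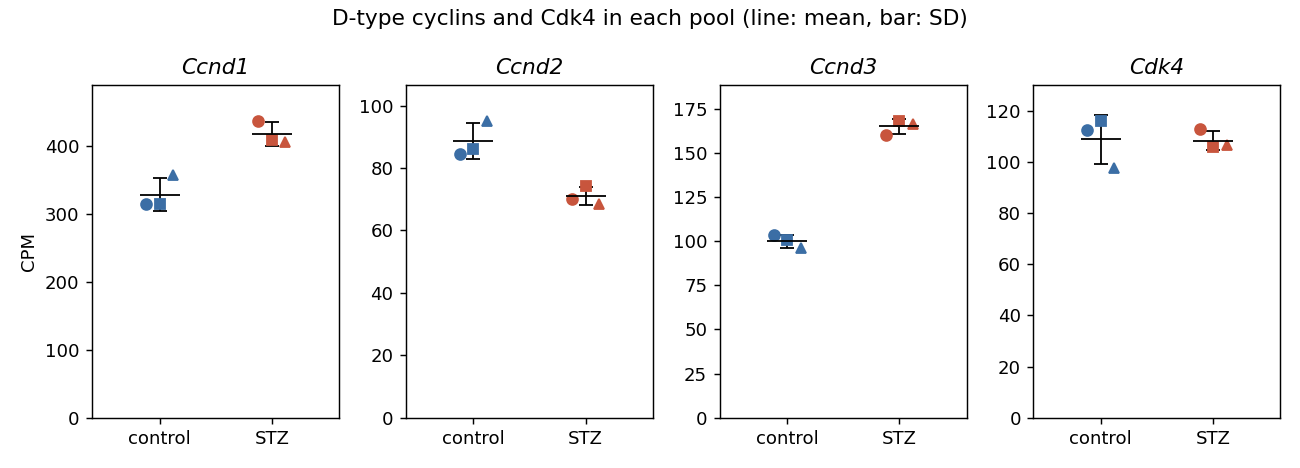
CPM of the 3 D-type cyclin genes and of Cdk4 in each pool, with circles, squares and triangles for pools 1, 2 and 3, a horizontal line for the mean and a bar for the SD. Ccnd1 and Ccnd3 are higher in all STZ pools, Ccnd2 is lower in all of them, and the Cdk4 values of the groups overlap.

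Ratios between genes of 1 pool do not depend on how libraries are scaled, and were computed after the values above were seen. There were 1.13 ± 0.11 Ccnd3 counts per Ccnd2 count in control pools and 2.33 ± 0.09 in STZ pools, and 3.70 ± 0.06 against 5.88 ± 0.37 Ccnd1 counts per Ccnd2 count. Per kilobase of transcript, cyclin D1 made up 58.0% ± 2.01 of the D-type cyclin RNA in control and 54.9% ± 1.603 in STZ, cyclin D3 31.7% ± 2.27 and 38.98% ± 1.44, and cyclin D2 10.3% ± 0.28 and 6.15% ± 0.25. Cyclin D1 thus remained the most abundant of the 3 in every pool, and the share of cyclin D2 was lower in each STZ pool (5.98 to 6.44%) than in any control pool (10.03 to 10.6%). The summed level of the 3 cyclins was 149 ± 5.92 CPM per kb in control and 200.0 ± 2.90 in STZ pools.

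The kinases that D-type cyclins bind gave no call. Cdk4 was at 112, 116 and 97.9 CPM in control and 113, 106 and 107 CPM in STZ pools. The groups overlapped, and the log2 fold change of -0.01 ± 0.09 has a 95% interval of -0.20 to 0.19, which leaves room for a change of up to 1.14-fold upward or to 0.868 of control. Cdk6 was barely read, at 1.98, 2.25 and 5.52 CPM in control and 1.93, 1.73 and 2.75 CPM in STZ pools. Control pool 3 alone held the high value, and the log2 fold change of -0.48 ± 0.40 (adjusted p = 0.507) moved to 0.04 without that pool. On the scale of level per length, Cdk4 (80.9 CPM per kb in control) lay beside Ccnd1 (86.4) and the polymerase clamp gene Pcna (84.3), whereas Cdk6 was at 1.32 CPM per kb.

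**Figure D3:**
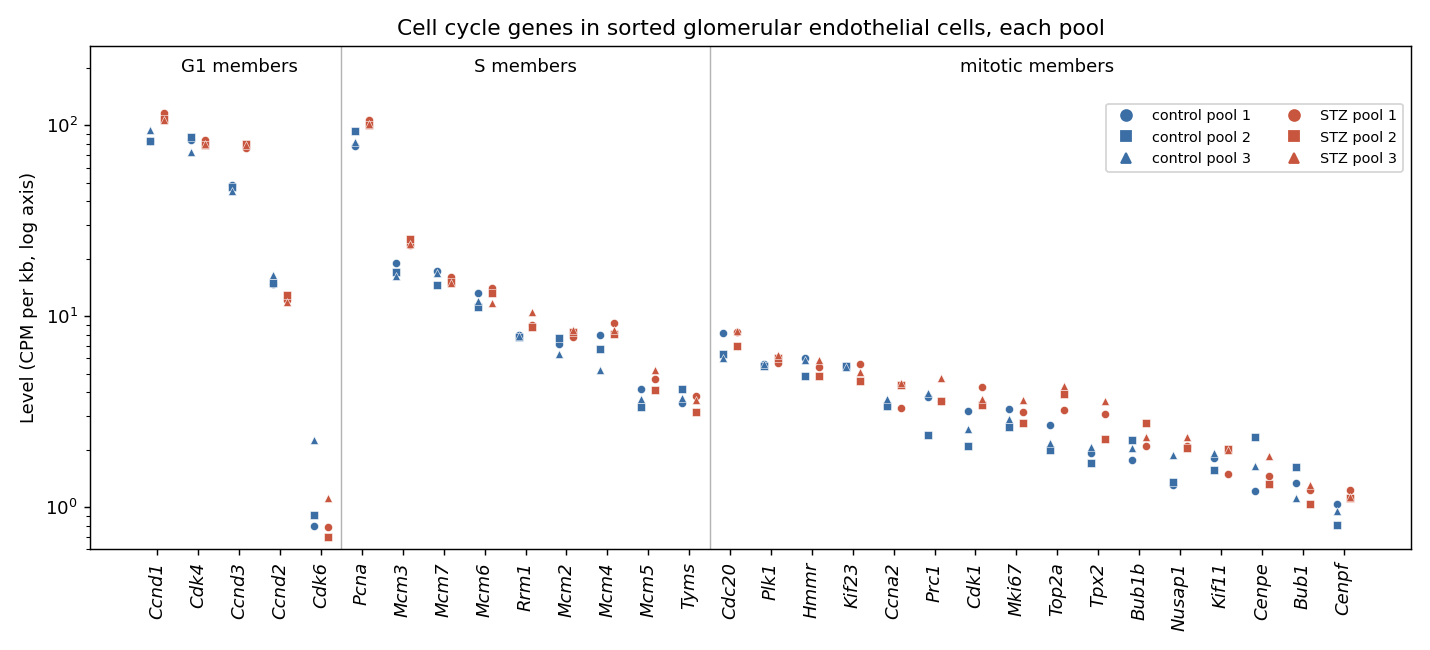
Level of each member per kilobase of transcript (CPM per kb, log axis) in every pool, ordered within each phase by its mean, with blue for control and red for STZ. The G1 genes other than Cdk6, and Pcna, Mcm3, Mcm6 and Mcm7 of S phase, lie above 10 CPM per kb in all pools. Every mitotic gene lies below 10.

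In S phase, Mcm3 was the only one of 9 genes called, where 9.41% of the tested genes in their range of mean CPM were. Mcm3, a subunit of the MCM helicase (NM_008563; mm10 chromosome 1, 20803014 to 20820213, minus strand), stood at 54.8, 49.2 and 47.1 CPM in control and 68.4, 73.6 and 68.7 CPM in STZ pools. All STZ pools were above all control pools, the log2 fold change was 0.47 ± 0.10 (adjusted p = 0.00690), and the call held under all 17 alternatives. The helicase is a ring of one copy each of its subunits Mcm2 to Mcm7, and all 6 genes had rows. Their log2 fold changes ranged from -0.08 for Mcm7 to 0.47 for Mcm3 with a median of 0.26. Mcm4, at 28.5, 24.3 and 18.8 CPM in control and 33.1, 28.9 and 30.5 CPM in STZ pools, was above control in every STZ pool but did not pass (0.35 ± 0.15, adjusted p = 0.164). Mcm2 went from 23.9 ± 2.31 to 27.5 ± 1.21 CPM without overlap (0.20 ± 0.12, adjusted p = 0.359).

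Mcm5 went from 12.72 ± 1.39 to 16.0 ± 1.94 CPM (0.32 ± 0.17) and Mcm6 from 35.1 ± 2.93 to 37.6 ± 3.44 CPM (0.10 ± 0.12), both with overlapping groups. Mcm7 was at 41.1, 34.9 and 40.2 CPM in control and 38.3, 36.2 and 35.5 CPM in STZ pools. Its 95% interval of -0.32 to 0.16 does not reach the fitted value of Mcm3. There were 1.30 ± 0.12 Mcm3 counts per Mcm7 count in control and 1.92 ± 0.12 in STZ pools, a ratio chosen after the values were seen. Control pools lay between 1.17 and 1.41 and STZ pools between 1.79 and 2.03, without overlap. Mcm3, Mcm6 and Mcm7 had the highest levels per length of the 6 (17.4, 12.1 and 16.2 CPM per kb in control) and Mcm5 the lowest (3.72).

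The other S-phase genes were not called. Pcna, the sliding clamp of the replicative polymerases (mm10 chromosome 2, 132249286 to 132253180, minus strand), was at 98.5, 117 and 103 CPM in control and 134, 126 and 127 CPM in STZ pools. The groups did not overlap, and the log2 fold change of 0.28 ± 0.09 missed the threshold (adjusted p = 0.0690), which it passed in 2 fits, limma-voom with sample weights and without control pool 2. Rrm1, the large subunit of ribonucleotide reductase that makes DNA precursors, was nearly constant in control at 31.9, 31.2 and 31.6 CPM and stood at 35.9, 35.1 and 42.1 CPM in STZ (0.26 ± 0.12, adjusted p = 0.191). Tyms, thymidylate synthase, went from 14.4 ± 1.33 to 13.4 ± 1.35 CPM with overlap (-0.10 ± 0.16). In all, 5 of the 9 S-phase genes had every STZ pool above every control pool, where 15.4% of all tested genes did. Pcna and Tyms have processed pseudogene copies in the mouse genome, and how reads shared with them were counted is not given.

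E2F factors recognise short GC-rich sites in front of replication genes, and mitotic genes often carry a site called the cell cycle genes homology region (CHR) beside CCAAT boxes. Promoter windows of RefSeq (GRCm38.p6, from 250 bases before to 50 bases after the transcript start) matched 25 of the 30 genes by symbol. Ccnd1, Ccnd2, Mcm4, Ccna2 and Tpx2 had no window. The windows were searched on both strands for TTTCCCGC, TTTGGCGC, TTTCGCGC and TTTGCCGC as E2F letters, TTTGAA as CHR letters, and CCAAT, where the first 4 may overlap each other. E2F letters stood in the windows of 4 of 8 S-phase genes, namely Mcm3, Mcm5, Mcm6 and Mcm7, in 1 of 14 mitotic genes and in none of 3 G1 genes, against 4.6% of the 10202 genes of the series that have a window. The sequences of Mcm3, which was called, and of Mcm6, which was not, show that both carry such letters. They are given 5′ to 3′ up to base 30 after the start, with E2F letters and CCAAT on either strand in capitals.
Mcm3, chr1:20820283-20820562, minus strand: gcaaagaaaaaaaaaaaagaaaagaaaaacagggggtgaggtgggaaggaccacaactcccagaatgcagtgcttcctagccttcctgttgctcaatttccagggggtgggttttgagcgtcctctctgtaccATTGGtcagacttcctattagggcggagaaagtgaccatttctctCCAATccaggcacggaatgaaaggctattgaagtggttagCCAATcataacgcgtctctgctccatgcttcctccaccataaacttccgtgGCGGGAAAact
Mcm6, chr1:128359676-128359955, minus strand: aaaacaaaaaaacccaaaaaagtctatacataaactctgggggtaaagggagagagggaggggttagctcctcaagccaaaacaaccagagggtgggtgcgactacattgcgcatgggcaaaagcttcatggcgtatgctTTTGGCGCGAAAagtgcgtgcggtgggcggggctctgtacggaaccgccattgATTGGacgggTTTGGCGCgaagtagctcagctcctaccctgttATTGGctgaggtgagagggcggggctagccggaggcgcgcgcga
Base 1 is the first of the transcript on which the promoter window was placed. For both genes it differs from the start of the counted row, at 20820213 for Mcm3 and 128359656 for Mcm6. Both stretches shown lie wholly upstream of that row's start. In Mcm6 a TTTGGCGC at base -110 overlaps a TTTCGCGC on the opposite strand at base -106, and a second TTTGGCGC begins at base -47. In Mcm3 a TTTCCCGC on the opposite strand begins at base 20, and a TTTGGCGC begins at base 39, past the part shown.

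Of 16 mitotic genes, Top2a was called higher and the other 15 were not called, where 7.61% of the 4561 tested genes between 5.42 and 30.8 mean CPM, the range of the mitotic genes, were called. Top2a, which untangles DNA and is made mainly from S phase to mitosis (NM_011623; mm10 chromosome 11, 98992947 to 99024189, minus strand), stood at 14.1, 10.4 and 11.3 CPM in control and 16.7, 20.5 and 22.5 CPM in STZ pools. All STZ pools were above all control pools, with a log2 fold change of 0.72 ± 0.17 (adjusted p = 0.0173). Adjusted p rose to 0.0584 when control pool 2 was left out and to 0.0794 when STZ pool 3 was, so the call rests on each of these pools. Mki67, the proliferation antigen Ki-67, stood at 32.9, 26.5 and 29.2 CPM in control and 31.8, 27.8 and 36.5 CPM in STZ pools. Its groups overlapped, and its log2 fold change of 0.11 ± 0.14 has an interval of 0.883-fold to 1.32-fold. There were 0.403 ± 0.022 Top2a counts per Mki67 count in control and 0.627 ± 0.11 in STZ pools, a ratio chosen after the values were seen.

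Among the kinases and cyclins of mitotic entry, Cdk1, the main mitotic kinase, stood at 9.12, 5.94 and 7.29 CPM in control and 12.2, 9.77 and 10.5 CPM in STZ pools. STZ pools were above control pools throughout, but the log2 fold change of 0.52 ± 0.20 did not pass (adjusted p = 0.138). Its cyclin partner gene Ccna2 went from 9.81 ± 0.50 to 11.4 ± 1.81 CPM (0.22 ± 0.18). Plk1, a kinase of spindle assembly and cytokinesis, held 12.3 ± 0.20 and 13.2 ± 0.60 CPM (0.11 ± 0.15), and Cdc20, which activates the anaphase-promoting complex, 12.2 ± 2.02 and 14.0 ± 1.43 CPM (0.18 ± 0.17). The checkpoint kinase genes Bub1 (-0.21 ± 0.23) and Bub1b (0.25 ± 0.20) had fitted values of opposite sign, both with intervals across 0.

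Among spindle and kinetochore genes, Tpx2, which activates a spindle kinase and nucleates microtubules, was nearest to the threshold. It was at 8.02, 7.07 and 8.62 CPM in control and 12.9, 9.43 and 14.9 CPM in STZ pools, all STZ pools above control, with a log2 fold change of 0.65 ± 0.21 (adjusted p = 0.0656). Without STZ pool 2 it passed (0.82, adjusted p = 0.0224). Nusap1, a microtubule-binding protein of the spindle, went from 4.46 ± 0.92 to 6.37 ± 0.44 CPM (0.55 ± 0.23, adjusted p = 0.158) and Cenpf, a large kinetochore protein, from 10.4 ± 1.29 to 12.9 ± 0.74 CPM (0.30 ± 0.17, adjusted p = 0.3001), both without overlap. The motor gene Kif23 was very even in control, at 18.8, 18.8 and 18.6 CPM, and stood at 19.3, 15.7 and 17.5 CPM in STZ pools (-0.10 ± 0.14). The motor genes Kif11 (0.06 ± 0.20) and Cenpe (-0.14 ± 0.23), the midzone bundler Prc1 (0.24 ± 0.21) and the hyaluronan receptor and spindle protein Hmmr (-0.05 ± 0.14) had overlapping groups. For Cenpe, control pool 2 alone was high, with 18.2 CPM against 9.45 and 12.8 in the other control pools. In all, 6 of the 16 mitotic genes had every STZ pool above every control pool and none had every STZ pool below, against 15.4% and 13.7% of all tested genes.

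The promoter windows of the mitotic genes differed in their letters from those of S phase. CHR letters stood in 11 of 14 mitotic genes and CCAAT in 13, against 1 and 7 of 8 S-phase genes, and against 14.4% (CHR) and 42.8% (CCAAT) of the genes of the series with a window. Top2a, which was called, and Cdk1, which was not, both hold CHR letters beside several CCAAT boxes, and Cdk1 also holds the only E2F letters among the mitotic genes. They are shown in the same form, in capitals for CHR, CCAAT or E2F letters on either strand.
Top2a, chr11:99024160-99024439, minus strand: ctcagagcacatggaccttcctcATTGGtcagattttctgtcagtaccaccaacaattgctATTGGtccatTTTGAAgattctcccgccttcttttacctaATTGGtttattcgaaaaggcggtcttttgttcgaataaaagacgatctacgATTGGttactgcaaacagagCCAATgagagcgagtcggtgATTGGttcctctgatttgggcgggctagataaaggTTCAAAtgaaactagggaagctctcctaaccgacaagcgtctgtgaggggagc
Cdk1, chr10:69352883-69353162, minus strand: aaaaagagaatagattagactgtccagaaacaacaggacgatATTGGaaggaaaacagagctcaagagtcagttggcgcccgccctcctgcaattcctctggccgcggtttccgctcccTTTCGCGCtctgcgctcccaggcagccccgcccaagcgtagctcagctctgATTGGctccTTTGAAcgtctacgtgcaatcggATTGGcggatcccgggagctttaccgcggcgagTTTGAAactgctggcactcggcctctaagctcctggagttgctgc
In Top2a the CHR letters begin at bases -179 and, on the opposite strand, -23, and in Cdk1 at -71 and -15. Over all tested genes with a window, those with E2F letters had a median log2 fold change of -0.01 when the members were left out (459 genes, 6.1% called) and those with both CHR and CCAAT letters one of 0.00 (698 genes, 7.74% called), beside -0.01 and 9.47% over all 10110 such genes. A match of letters is a description and does not show that a factor binds there.

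The order of the pools within a group was counted over the mitotic genes, as a description with no test. Among control pools, pool 2 held the lowest value of 10 of the 16 mitotic genes, where it did so for 34.0% of all tested genes. Among STZ pools, pool 3 held the highest value of 11 and pool 2 the lowest of 11, against 32.5% and 38.8% of all tested genes. As the median deviation from each gene's mean log2 CPM over the 6 pools, mitotic genes stood at 0.01, -0.19 and -0.06 in control pools 1, 2 and 3 and at 0.03, 0.03 and 0.21 in STZ pools 1, 2 and 3. Control pool 1 thus lay near STZ pools 1 and 2. S-phase genes stood at -0.06, -0.14 and -0.17 in control and 0.16, 0.08 and 0.16 in STZ pools. G1 genes, which moved in opposite directions among themselves, stood at -0.23, -0.13 and -0.05 against 0.06, -0.04 and 0.13. In each phase every STZ median was thus above every control median, narrowly in mitosis (0.03 against 0.01) and in G1 (-0.04 against -0.05).

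**Figure D4:**
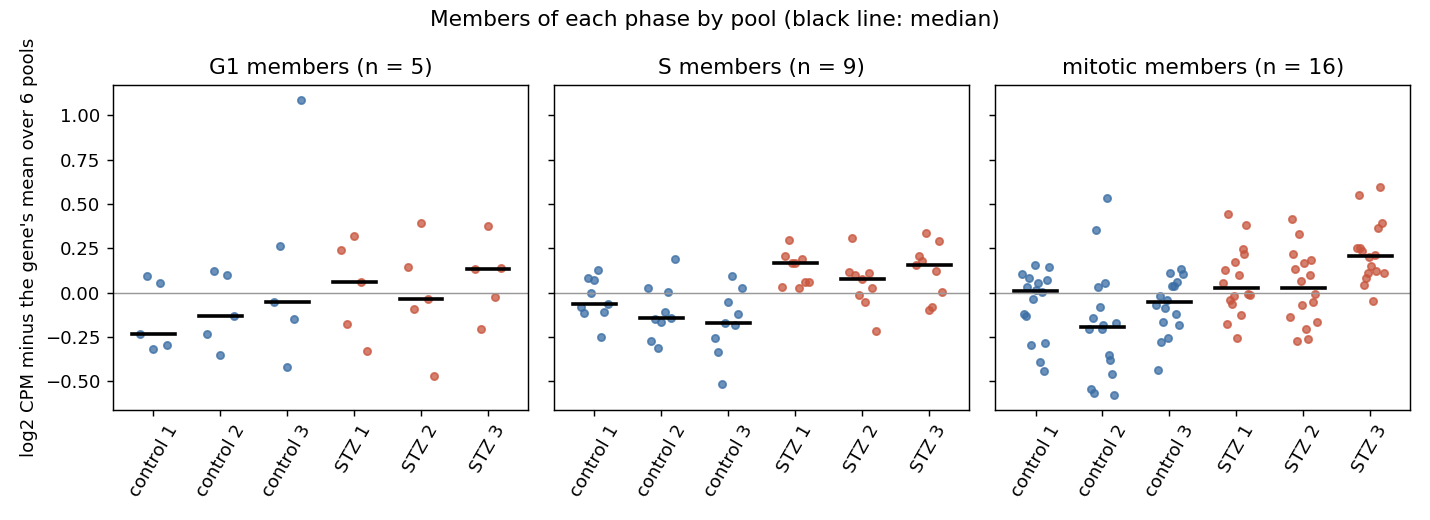
Deviation of each member's log2 CPM from its own mean over the 6 pools, by phase and pool, with a black line at the median. In each phase the medians of all STZ pools are above those of all control pools. The gap is narrow in G1 (-0.04 in STZ pool 2 against -0.05 in control pool 3), where genes moved in opposite directions. In mitosis control pool 1 (0.01) lies close to STZ pools 1 and 2 (0.03 each). There STZ pool 3 (0.21) stands above the rest and control pool 2 (-0.19) below.

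By phase, 2 of 5 G1 genes were called higher and 1 lower, 1 of 9 S-phase genes was called higher and 1 of 16 mitotic genes was called higher. The median log2 fold change was -0.01 in G1, 0.26 in S phase and 0.20 in mitosis. When each library was left out in turn, the S-phase median was lowest at 0.171 and the mitotic one at 0.110, each in the fit lacking STZ pool 3, while the G1 median lay between -0.037 and 0.042 and so on both sides of 0. The difference between phases was not tested, because the genes were chosen with results of these data known. Levels and precision both differed between the phases. The median level in control pools was 99.9 CPM in G1, 31.5 in S phase and 10.3 in mitosis, and the median half-width of the 95% interval was 0.20, 0.26 and 0.41 on the log2 scale. The mitotic gene nearest below the threshold, Tpx2, had a log2 fold change of 0.65, and the S-phase gene nearest below it, Pcna, one of 0.28.

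Around the listed genes, 140 other cell cycle genes in 9 lists had rows, and 7 of them were called higher and 2 lower (median 0.10). Of all tested genes, 5.47% were called higher and 4.32% lower (9.78% either way), and the counts of each list below stand beside these shares. The inhibitor list held the largest change. Cdkn1a, which encodes p21 and blocks the cyclin-dependent kinases of G1 and S phase, stood at 102, 88.0 and 133 CPM in control and 355, 327 and 350.1 CPM in STZ pools, a log2 fold change of 1.68 ± 0.13 (adjusted p = 8.57e-06). Every STZ pool was above every control pool, and the call held in all 17 alternatives. The other 4 inhibitor genes with a row were not called, and the median of the 5 was 0.23. Cdkn1b, encoding p27, went from 94.7 ± 8.30 to 111 ± 8.47 CPM without overlap (0.23 ± 0.10, adjusted p = 0.169), Cdkn2d from 13.2 ± 0.92 to 16.3 ± 0.91 CPM (0.30 ± 0.15), and Cdkn2c (0.18 ± 0.20) and Cdkn1c (-0.23 ± 0.25) overlapped. Cdkn1c is also a podocyte marker.

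Wee1, the kinase that holds Cdk1 inactive before mitosis, was the only one of 20 genes of mitotic entry and the anaphase-promoting complex to be called. It stood at 10.4, 8.35 and 5.74 CPM in control and 17.9, 17.4 and 18.5 CPM in STZ pools, with a log2 fold change of 1.09 ± 0.19 (adjusted p = 0.00289), and the call held in all 17 alternatives. The phosphatase gene Cdc25c, which opposes Wee1, stood at 7.39 ± 0.33 and 5.25 ± 1.56 CPM, all STZ pools below control, and did not pass (-0.49 ± 0.25, adjusted p = 0.251). The median of that list was -0.07.

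Among other cyclins and growth regulators, 3 of 19 were called higher and 2 lower, with a median of 0.06. Btg2, an antiproliferative protein, went from 125 ± 9.58 to 209 ± 6.38 CPM (0.74 ± 0.09, adjusted p = 0.000185). Mxd4, a repressor that competes with MYC, went from 79.5 ± 4.46 to 127 ± 14.1 CPM (0.67 ± 0.10), and Ccny, a cyclin of membrane signalling, from 107 ± 7.65 to 161 ± 13.0 CPM (0.59 ± 0.09). Mycn, a growth-promoting transcription factor, fell from 27.4, 28.6 and 38.9 CPM in control to 15.5, 20.1 and 14.7 CPM in STZ pools (-0.90 ± 0.17, adjusted p = 0.00401). Mycn, Mxd4, Ccny and Btg2 kept their calls in all 17 alternatives. Ccnt1, a cyclin of transcription elongation (-0.58 ± 0.16, adjusted p = 0.0364), was not called when any 1 library was left out (adjusted p of 0.0554 to 0.162).

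The remaining lists had at most 1 call each in edgeR. Of 30 genes of the replication fork and nucleotide supply, Rpa1, which coats single-stranded DNA, was called higher, from 35.7 ± 3.76 to 50.2 ± 2.70 CPM (0.49 ± 0.11, adjusted p = 0.0143), and lost its call without STZ pool 3 (adjusted p = 0.0687). The flap nuclease gene Fen1 (0.72 ± 0.22, adjusted p = 0.0563) was next and was called higher by limma-voom with sample weights, and the median of that list was 0.18. Of 6 genes of the complexes that repress or activate cell cycle promoters, Rbbp4 was called higher (0.33 ± 0.10, adjusted p = 0.0469), a call lost in 8 of 17 alternatives, among them without control pools 1 or 3 or STZ pools 1 or 3 (adjusted p of 0.0978 to 0.212), and the list's median was 0.11.

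None of 11 Rb and E2F genes was called by edgeR, DESeq2 or limma-voom (with or without sample weights), with 1 at an unadjusted p under 0.05 in edgeR, E2f1, and a median of -0.03. E2f1 was at 18.2, 19.4 and 8.84 CPM in control and 10.4, 9.34 and 10.7 CPM in STZ pools (-0.64 ± 0.24, adjusted p = 0.123), so control pool 3 lay with the STZ pools. E2f3 had the next smallest p (-0.24 ± 0.12, adjusted p = 0.243), with overlapping groups. Of 19 genes of origin licensing and firing none was called by the 3 tools (in edgeR, 1 at an unadjusted p under 0.05, Cdk2, -0.26 ± 0.10), with a median of 0.08. Next in that list was Cdt1 (0.42 ± 0.21, adjusted p = 0.244), with all STZ pools above control. The 3 tools also called none of 11 genes of the spindle checkpoint and kinetochore (in edgeR, 1 at an unadjusted p under 0.05, Bub3, 0.22 ± 0.09) with a median of 0.11. Next there was Ndc80 (0.49 ± 0.23, adjusted p = 0.21), also with all STZ pools above control. In edgeR and in limma-voom without sample weights none of 19 genes of mitotic motors, chromosome condensation and cytokinesis was called, and in edgeR 5 had an unadjusted p under 0.05 and the median was 0.22. The condensin genes Ncapg (0.82 ± 0.25, adjusted p = 0.0540) and Ncaph (0.78 ± 0.24, adjusted p = 0.0579) came nearest, with all STZ pools above control, and DESeq2 called Ncaph higher and limma-voom with sample weights both. Before adjustment, 3091 of the 12786 genes tested in edgeR fell below 0.05. Of the list counts at that level, 5 of 19 was close to this share. The counts of 1 of 11 (Rb and E2F), 1 of 19 (origins) and 1 of 11 (checkpoint and kinetochore) were below it, and these differences were not tested.

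**Figure D5:**
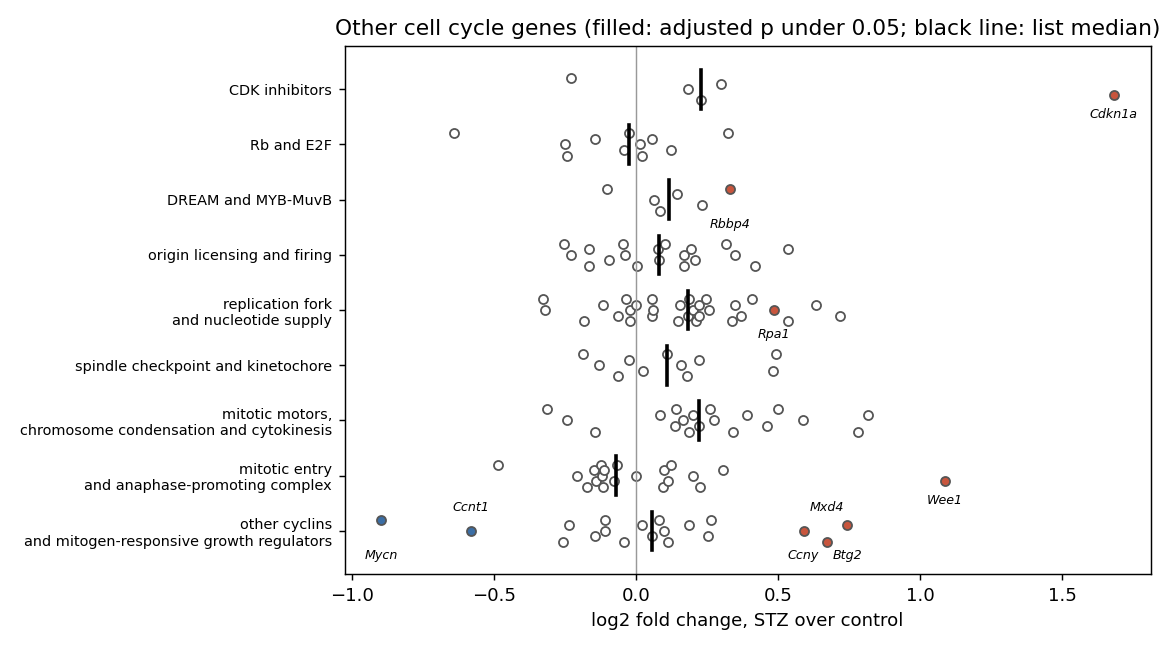
log2 fold change of STZ over control for 140 other cell cycle genes in 9 lists, with a black line at each list's median. Filled points passed an adjusted p of 0.05 (red higher, blue lower, with names), and Cdkn1a (1.68) and Wee1 (1.09) lie farthest to the right.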

How the data were processed

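RNA-seq of 6 pools was analysed from 1 table per library, 3 of control and 3 of STZ, with groups and replicate numbers from the labels. The deposited values are 1 expected count per gene, in multiples of 0.5, and the unit was read from the values. Per the submitters' processing notes the build was mm10 and limma was used. For the aligner, the counter and the strand setting, nothing was given in the sources used here. The 34 blank cells were read as 0, values were rounded, and 1 was added to the listed starts. Fits used edgeR 4.0.16 in R 4.3.3 (filterByExpr, TMM, robust quasi-likelihood F test, two-sided, Benjamini-Hochberg, threshold 0.05), tested on simulated data. CPM use TMM library sizes, and log2 CPM a prior count of 2. Alternatives used DESeq2 1.42.0, limma 3.58.1 (voom), other scalings, filters and depth, a threshold of 0.10 and a replicate block. Named genes were the 39 listed members, up to 4 called genes per wider list (else the 2 with the smallest p) and the most abundant markers, and any beyond these were chosen after their values were seen, as were Ccnt1, Cdkn1b, Cdkn2d, Cdkn2c, Cdkn1c, Cdc25c and Fen1. Members, lists and tests were chosen with earlier results of these data known.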

Additional observations from a re-analysis of the deposited data

How the results depend on the processing

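Each result was recomputed under 17 alternatives. Of 30 member genes, directions and calls were the same in 475 comparisons, a call was lost in 17, gained in 5, and the sign turned in 12, all of these in genes that were not called. With each library left out in turn, log2 fold changes ran from -0.071 to 0.042 for Cdk4, from -0.792 to 0.041 for Cdk6, from -0.366 to 0.153 for Cenpe, from -0.144 to 0.017 for Hmmr and from -0.017 to 0.181 for Kif11, and Cenpe stood at 0.039 with sample weights in limma-voom. With 1 library left out, 2 to 4 members were called higher and 0 lower, 662 to 1291 of all genes were called (426 to 695 higher, 236 to 596 lower), and 5 to 10 wider-list genes were called higher and 1 to 3 lower. All genes called fell to 720 without control pool 1 and 662 without STZ pool 1, and lower genes to 355 without STZ pool 3. The G1 median ran from -0.037 to 0.042, turning sign without control pools 1 (0.018), 2 (0.042) and 3 (0.041) and STZ pools 2 (0.010) and 3 (0.004); the S-phase median ran from 0.171 to 0.297 and the mitotic one from 0.110 to 0.219. No member was called lower by DESeq2 (0), with the replicate block (0) or thinned to the shallowest library (0), all through Ccnd2. At a threshold of 0.10, 866 genes were called lower and 12 wider-list genes higher. Thinned, the G1 median was 0.128, with Cdk6 no longer tested, and the S-phase median 0.181. Same-numbered pools deviated with correlations of 0.119, -0.128 and -0.163, and differently numbered ones with -0.243 to 0.295. No shared deviation of same-numbered pools was seen, but values centred within 3 pools cannot show whether they were prepared together. With the replicate block 3 members were called higher, Ccnd1 losing its call (adjusted p = 0.0790), 1 wider-list gene was called lower and 1001 genes in all. The cause was not tested for these changes. The median half-width of the 95% interval was 0.41 for mitotic genes (median of 10.3 CPM in control), 0.26 for S phase and 0.20 for G1, and the widest of all members was that of Cdk6 (0.85).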
